A study of Mus musculus with 55 samples.

Results

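The report covers 8 genes for receptors that steer blood cells through tissue: the chemokine receptors Cxcr4, Cxcr2, Ccr1, Ccr2, Ccr7, Ccr9 and Cx3cr1, and S1pr1, the receptor for the lipid sphingosine 1-phosphate. They were taken by symbol from a count table of 55421 genes, in which each of the 8 symbols stood on 1 row, and from a second, smaller table of 35976 rows. The first table, set 1, held 46 RNA-seq libraries made from cells sorted out of mouse marrow. It covered LT-HSCs and ST-HSCs (long-term and short-term hematopoietic stem cells), the common myeloid progenitor (CMP), the granulocyte-macrophage progenitor (GMP), the megakaryocyte-erythroid progenitor (MEP) and the common lymphoid progenitor (CLP), each from WT and Tet2-/- mice, with 4 libraries a group except 3 for WT LT-HSCs and 3 for WT ST-HSCs. The second table, set 2, held 3 LT-HSC libraries each from WT, Sting-/- and Tet2;Sting DKO mice, and it was used for support.

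Per the study's methods, all mice were on a C57BL/6 background, and Tet2-/- mice were Tet2 f/f, Mx1-Cre animals given poly(I:C), a double-stranded RNA that induces interferon, from 4 weeks of age. Mx1-Cre responds to interferon and so acts in blood cells and in other cells that answer to it. The cells of Tet2-/- mice were taken 16 weeks after induction, and whether WT or Sting-/- mice received poly(I:C), or WT mice carried floxed alleles in set 1, is not stated for the mice of these libraries, although a legend of the study on other measurements speaks of injection for all its mice. The WT mice of set 2 were Tet2 wt/wt. Sting-/- mice carried a deletion in every cell, and DKO mice combined it with Tet2 f/f and Mx1-Cre and were given poly(I:C) too. About 200 cells were sorted for each library according to the labels, while the study's methods give a higher number for each group. The study's legends count its samples as mice, but no source ties a replicate number to the same mouse across populations.

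Chemokine and lipid receptors of this kind are G protein-coupled receptors: a ligand gradient activates them, the inhibitory G protein Gi passes the signal on to the motility machinery, and the receptor is then taken back into the cell. CXCR4 holds stem cells and B cell precursors in marrow niches that make its ligand CXCL12. S1PR1 draws cells towards blood and lymph, which are rich in sphingosine 1-phosphate, and CCR7 and CCR9 guide lymphoid cells to lymph nodes and to thymus and gut. CCR2 and CX3CR1 mark monocytes and their precursors, CCR1 is found on several myeloid cells, and CXCR2 draws neutrophils out of the marrow.

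The members lie on 4 chromosomes of mouse genome build GRCm38 (mm10). On chromosome 1 are Cxcr4 (ENSMUSG00000045382, chr1:128588199-128592293, minus strand) and Cxcr2 (chr1:74153989-74161246, plus strand). On chromosome 9 are Cx3cr1 (chr9:119901616-120069879, minus strand), Ccr9 (chr9:123678439-123784330, plus strand), Ccr1 (chr9:123962124-123968692, minus strand) and Ccr2 (chr9:124101950-124113557, plus strand), the start sites of Ccr1 and Ccr2 being 133258 bases apart. Ccr7 (chr11:99144196-99155077) and S1pr1 (chr3:115710433-115715072) are both on the minus strand. All 8 are protein-coding genes, and the coordinates span each whole gene with its introns and UTRs.

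Promoter sequence of 6 members, all but Ccr7 and S1pr1, was matched by symbol in a RefSeq table of build GRCm38.p6. The 250 bases before the RefSeq start site are shown for Cxcr4 and Ccr9, the pair with the largest difference between WT and Tet2-/- CLPs, and for Ccr1, whose level split inside the Tet2-/- groups. The table's window for Ccr2 lies almost wholly inside the gene's first exon and is not shown. Capitals mark matches, on either strand, to the TATA box TATAAA, the GC box GGGCGG, the CCAAT box CCAAT, the PU.1 core GAGGAA, the RUNX core TGTGGT, the E-box CACGTG or the GAS element TTCNNNGAA. The windows are Cxcr4 at chr1:128592300-128592549 (minus strand), Ccr9 at chr9:123766961-123767210 (plus strand, an inner start of the gene) and Ccr1 at chr9:123968693-123968942 (minus strand), each written 5′ to 3′ in the direction of the gene.
Cxcr4: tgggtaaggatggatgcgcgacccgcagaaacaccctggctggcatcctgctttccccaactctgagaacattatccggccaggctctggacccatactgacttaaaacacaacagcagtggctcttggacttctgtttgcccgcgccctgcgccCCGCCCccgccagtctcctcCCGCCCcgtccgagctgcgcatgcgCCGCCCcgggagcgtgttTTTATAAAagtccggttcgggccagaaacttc
Ccr9: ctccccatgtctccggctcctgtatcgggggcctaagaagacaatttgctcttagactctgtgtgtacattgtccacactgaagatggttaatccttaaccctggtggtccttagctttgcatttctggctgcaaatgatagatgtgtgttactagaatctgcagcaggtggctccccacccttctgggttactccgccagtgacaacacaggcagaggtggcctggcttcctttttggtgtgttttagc
Ccr1: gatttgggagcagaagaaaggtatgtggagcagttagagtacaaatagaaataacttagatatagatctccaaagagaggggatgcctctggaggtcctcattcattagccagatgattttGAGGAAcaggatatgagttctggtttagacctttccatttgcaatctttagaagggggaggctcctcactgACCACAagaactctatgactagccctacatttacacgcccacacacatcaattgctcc
The Cxcr4 window held 19 CpG dinucleotides and was 61.2% G or C, and 19.7% of the 32851 RefSeq promoters of this length held as many CpGs (median 6). It had a TATA box read on both strands in overlapping matches and 3 GC boxes. A TATA box was found in 12.37% of all promoters and a GC box in 32.74%. The Ccr1 window held 1 CpG, a PU.1 core (in 23.25% of all promoters) and a RUNX core (14.05%), while that of Ccr9 held 3 CpGs and no match to these letters. Cxcr2 had a CCAAT box (33.85% of promoters) and a PU.1 core with 1 CpG, and Cx3cr1, again at an inner start, a CCAAT box and a RUNX core with 4 CpGs. A match describes the letters in the window, not a bound site.

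Library totals ran from 50458473 to 102148079 counts in set 1 (median 70118186.5) and from 26776517 to 78682096 in set 2, and no 2 libraries were identical. Levels are given as CPM, counts scaled to a common library total with the trimmed mean of M values (TMM), over 46 libraries for set 1 and over 9 for set 2. Tet2 mRNA did not separate the genotypes: its mean was 13.2 CPM in WT and 23.9 CPM in Tet2-/- LT-HSCs, 20.7 and 16.2 CPM in CMPs and 37.6 and 47.7 CPM in GMPs. Counts summed over the whole gene do not show whether its floxed part was lost. Markers followed the labels of the GMP and MEP gates: Mpo, the myeloperoxidase of granulocyte precursors, was at 18710 to 26610 CPM in GMPs and at most 55.3 CPM in MEPs. The libraries labelled CLP stood apart. Il7r, the receptor by which CLPs are sorted, was at 231.0 to 1120 CPM in all 8, but 396 antibody chain genes took 26.4% to 47.0% of the counts in WT and 0.084% to 32.6% in Tet2-/- libraries, against at most 0.0234% in the other 38, and Rag1, an early lymphoid recombinase, was at 0 in all 4 WT CLP libraries. Which cells these libraries hold was not tested, so levels given below for CLPs are those of libraries with that label, and other cells may be among them. All 46 libraries of set 1 had 0 counts of the Y-linked genes Eif2s3y and Ddx3y, whereas in set 2 Eif2s3y was at most 0.237 CPM in WT and 154.0 to 323.4 CPM in Sting-/- and DKO libraries, so sex and genotype cannot be told apart in the 2 comparisons with WT.

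Across the 6 WT populations the receptors sorted into 4 patterns. Cxcr4 was found in all 6 and was highest in CLPs, S1pr1 was highest in the 2 stem cell populations, Cxcr2, Ccr1, Ccr2 and Cx3cr1 were high in CMPs and GMPs (Ccr2 also in the CLP libraries, with a mean of 198.9 CPM, while the mean of 14.9 CPM of Cx3cr1 there rested on replicate 2 at 54.95 CPM, with 0 in 2 of the 4), and Ccr7 and Ccr9 were near 0 outside the CLP libraries. All 8 members differed among the 6 populations in WT (edgeR quasi-likelihood test, adjusted p from 1.85e-10 for Cxcr4 to 0.00247 for Cx3cr1) and in Tet2-/- (from 4.39e-09 for Ccr2 to 0.0186 for Cx3cr1). Of all 22360 genes tested, 42% passed in WT and 44.4% in Tet2-/-. Without the CLP libraries, an alternative added after the data were seen, 6 of 8 passed in WT (not Ccr7 or Ccr9), against 44.7% of the 21736 genes tested, and 7 of 8 in Tet2-/- (not Ccr7), against 51.4%.

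**Figure D1:**
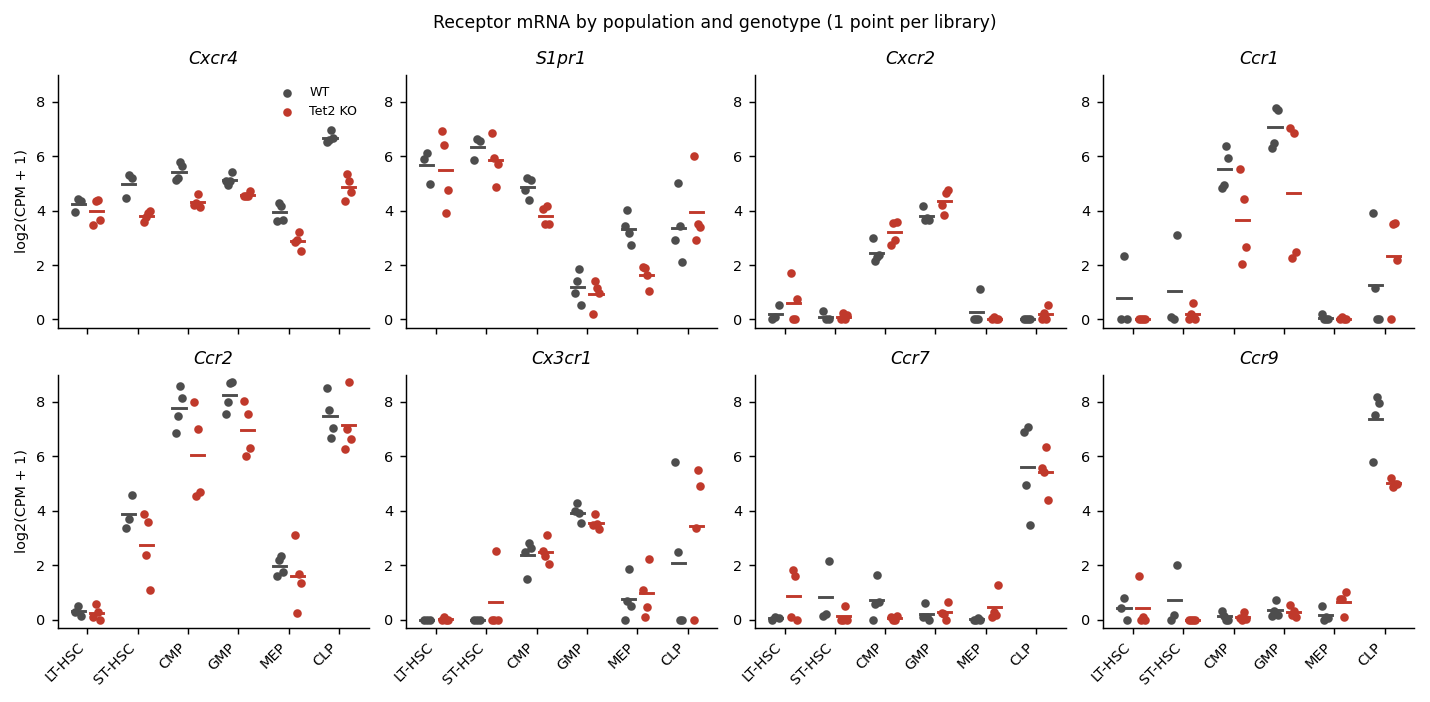
Level of each of the 8 receptor genes as log2(CPM + 1) in every library of set 1, in 6 populations, with points for single WT and Tet2-/- libraries (Tet2 KO in the legend) and bars for the mean of the log values. Cxcr4 stands above 0 in every group, S1pr1 is lowest in GMPs, and Ccr7 and Ccr9 rise above the baseline in the CLP libraries.

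Cxcr4, the receptor for CXCL12, was at 102.5 ± 13.9 CPM (SD, n = 4) in WT CLPs, followed by CMPs at 43.0 ± 10.3, GMPs at 34.4 ± 4.77, ST-HSCs at 31.4 ± 9.26 (n = 3), LT-HSCs at 18.0 ± 3.12 (n = 3) and MEPs at 14.6 ± 3.67. Of the neighbours in this order only CLP and CMP differed (adjusted p = 0.000446, in a comparison that called 16.5% of all genes), although every ST-HSC library lay above the LT-HSC range, as for 5.77% of all genes. Cxcr4 fell by 1.56 on the log2 scale from CMPs to MEPs (SE 0.26, adjusted p = 6.34e-05) and was 1.71 higher in the libraries labelled CLP than in ST-HSCs (SE 0.29, adjusted p = 2.72e-05), where the part of other cells in the CLP libraries was not tested. In the first of these comparisons 3 of 8 members were called, Cxcr4, Ccr1 and Ccr2, against 4.88% of all genes, and in the second 6 of 8 against 20% of all genes. The same comparisons in Tet2-/- called 5 of 8 members against 3.58% of all genes, and 4 of 8 against 19.6%. The 5 became 2 without MEP replicate 4 or 5 and 3 without MEP replicate 2. In Tet2-/- the levels ran from 29.2 ± 8.83 CPM in CLPs over GMPs, CMPs, LT-HSCs and ST-HSCs to 6.43 ± 1.43 in MEPs, and only ST-HSCs and MEPs, the last pair, differed (adjusted p = 0.00395, against 14.1% of all genes called).

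S1pr1 was at 82.6 ± 22.8 CPM in WT ST-HSCs and 52.9 ± 19.9 in LT-HSCs (n = 3 each), which overlapped. It was at 28.8 ± 7.21 CPM in CMPs, 12.8 ± 12.8 in CLPs, 9.62 ± 3.99 in MEPs and 1.41 ± 0.932 in GMPs (n = 4 each). The only neighbours in this order that differed were MEPs and GMPs (adjusted p = 0.00605, against 12% of all genes called). From CMPs to GMPs S1pr1 fell by 4.33 on the log2 scale in WT (SE 0.78, adjusted p = 0.00076) and by 3.71 in Tet2-/- (SE 0.76, adjusted p = 0.00187). It was the 1 member called in this step, against 1.97% of all genes in WT and 3.6% in Tet2-/-. In none of the 8 GMP libraries did S1pr1 exceed 2.59 CPM.

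Among the myeloid receptors, Ccr1 and Ccr2, the receptor for the monocyte chemokine CCL2, were the most abundant. Per kilobase of exon, WT GMPs had 52.2 ± 26.4 CPM per kilobase of Ccr1 and 47.3 ± 17.4 of Ccr2, against 19.0 ± 2.64 of Cxcr4, 4.29 ± 0.863 of Cxcr2, 3.23 ± 0.731 of Cx3cr1 and 0.462 ± 0.306 of S1pr1 (SD, n = 4). The order of the first pair depended on the gene length used: with the lengths given in the second table, an alternative added after the data were seen, Ccr2 was at 80.6 ± 29.6 and Ccr1 at 52.3 ± 26.4. Ccr2 was nearly absent from WT LT-HSCs, with 8 to 35 counts a library and a mean of 0.248 CPM. It rose by 5.73 on the log2 scale from LT-HSCs to ST-HSCs (SE 1.18, adjusted p = 0.0214) and by a further 4.02 from ST-HSCs to CMPs (SE 1.03, adjusted p = 0.0181), and fell by 6.31 from CMPs to MEPs (SE 1.02, adjusted p = 3.91e-05). In Tet2-/- the same 3 steps were 5.13 (SE 1.01), 3.82 (SE 0.91) and -5.18 (SE 0.97), all called. No member was called in the first of them without Tet2-/- LT-HSC replicate 2 or 4, and Ccr2 was lost in the second without Tet2-/- CMP replicate 2 (adjusted p = 0.0538). Ccr2 was the single member called from LT-HSCs to ST-HSCs, where 0.0939% of all genes were called in WT and 0.183% in Tet2-/-, and from ST-HSCs to CMPs, where 3.04% and 3.7% were. The LT-HSC to ST-HSC call in WT was lost without any 1 of the 3 LT-HSC libraries or without ST-HSC replicate 5, and the ST-HSC to CMP call without any 1 of the 3 ST-HSC libraries, with adjusted p up to 0.246 and 0.118.

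The neutrophil receptor Cxcr2 was at 13.1 ± 2.63 CPM in WT GMPs and 4.63 ± 1.55 in WT CMPs, with every GMP library above every CMP library, as for 12.4% of all genes, and the step was not called (adjusted p = 0.83). Outside these populations its means were at most 0.735 CPM, and in WT CLPs it had 0 counts in all 4 libraries. Cx3cr1, the receptor for fractalkine, was at 14.5 ± 3.29 CPM in WT GMPs and 4.41 ± 1.85 in WT CMPs, separate in the same direction and not called (adjusted p = 0.805). It had 0 counts in all 6 WT LT-HSC and ST-HSC libraries. Of 306 counts in the 4 Tet2-/- ST-HSC libraries, all came from replicate 4.

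Ccr9 and Ccr7 were found almost wholly in the CLP libraries, with means of at most 1.23 CPM elsewhere. Ccr9, the receptor for the thymus and gut chemokine CCL25, was at 192.6 ± 101.9 CPM in WT CLPs and differed from the next population, ST-HSCs (adjusted p = 0.00636). Ccr7, the lymph node homing receptor, was at 73.3 ± 62.7 CPM in WT CLPs and differed likewise (adjusted p = 0.0397), a call that was lost with a replicate block (adjusted p = 0.0813), without the filter on low counts (0.0596) and without any of 4 libraries in turn (up to 0.128). Per kilobase, the most abundant member in the libraries labelled WT CLP was Cxcr4 at 56.7 ± 7.68 CPM per kilobase, before Ccr7 at 37.1 ± 31.7, Ccr2 at 29.4 ± 17.2 and Ccr9 at 18.8 ± 9.93. With the gene lengths of the second table Cxcr4 was at 55.3 ± 7.49, and Ccr2 at 50.1 ± 29.3 and Ccr9 at 43.9 ± 23.2 came before Ccr7 at 37.1 ± 31.7, so that the order of these 3 was not settled.

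Cxcr4 and S1pr1 were lower in Tet2-/- than in WT CMPs and MEPs, and Cxcr4 was below WT in every Tet2-/- library of 5 of the 6 populations. No member was called higher in any population, and the 1 case of Tet2-/- libraries all above WT was Ccr7 in MEPs, which the low-count filter removed (7 to 112 counts against 0 to 4, where 4.52% of the genes tested lay wholly above). A member was called when the adjusted p of the edgeR quasi-likelihood test within a population was below 0.05 and the change was at least 2-fold. The low-count filter kept all 8 members in GMPs, 7 in CLPs, 6 in CMPs and 5 in each of the other populations. Called lower in Tet2-/- were Cxcr4 and S1pr1 in CMPs, where 4.57% of all genes were called, 3.92% lower and 0.654% higher, and the same pair in MEPs, where 4.36% were, 4.21% lower and 0.147% higher. No member was called in the other 4 populations. Of all tested genes, 0.0245% were called in LT-HSCs, 0.0185% in ST-HSCs, 4.37% in GMPs and 0.00766% in CLPs, so that in LT-HSCs, ST-HSCs and CLPs almost no gene of any kind was called. At an unadjusted p below 0.05 and 2-fold there was no member in LT-HSCs, 1 in ST-HSCs (Cxcr4), 1 in GMPs (Ccr2) and 2 in CLPs (Cxcr4 and Ccr9), and DESeq2 called 0, 1, 0 and 2. Of all genes, the same unadjusted threshold was passed by 371 higher and 176 lower in LT-HSCs, 337 and 255 in ST-HSCs, 227 and 942 in GMPs, and 174 and 215 in CLPs, and DESeq2 called 237 in LT-HSCs, 331 in ST-HSCs and 461 in CLPs. In sorted bulk samples, fewer cells that carry a transcript and less of it per cell cannot be told apart.

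Cxcr4 in CMPs was at 33.5, 35.3, 54.8 and 48.4 CPM in the 4 WT libraries and at 17.5, 18.5, 23.3 and 16.4 CPM in the 4 Tet2-/- libraries. Every Tet2-/- library lay below every WT library, as for 8.97% of all genes tested there. The log2 fold change was -1.20 (SE 0.21, adjusted p = 0.0077), and an exact permutation test on log2(CPM + 0.5), two-sided, gave p = 0.0286, the smallest that 4 against 4 libraries allow. The call held when each library was left out in turn, with adjusted p from 0.00966 to 0.032.

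In MEPs, Cxcr4 was at 11.4, 18.3, 17.2 and 11.4 CPM in WT and at 6.20, 6.54, 8.23 and 4.76 CPM in Tet2-/-. The groups did not overlap, as for 8.52% of all genes in this direction. The log2 fold change was -1.19 (SE 0.25, adjusted p = 0.0232; exact permutation p = 0.0286), and the call was lost without any of WT replicates 3 and 4 or Tet2-/- replicates 2, 3 and 5, with adjusted p up to 0.0765. In GMPs, the WT libraries had 33.2, 30.1, 33.2 and 41.2 CPM and the Tet2-/- libraries 22.0, 22.4, 22.2 and 25.1 CPM. These did not overlap either (7.44% of all genes), and the adjusted p was 0.0235, but the log2 fold change of -0.62 (SE 0.14) was short of 2-fold. The adjusted p ran from 0.0307 to 0.0721 when single libraries were left out, and was above 0.05 without WT replicate 2 or 5 or Tet2-/- replicate 2 or 4. An adjusted p below 0.05 at any fold was reached by 6.56% of genes in GMPs.

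ST-HSCs had 20.9, 38.1 and 35.3 CPM of Cxcr4 in WT and 11, 12.6, 13.97 and 14.7 CPM in Tet2-/-, again with every Tet2-/- library below every WT library (4.86% of all genes). The log2 fold change of -1.23 (SE 0.30) was as large as in CMPs, with an adjusted p of 0.381 and an exact permutation p of 0.0571, the smallest that 4 against 3 libraries allow. DESeq2 called it (adjusted p = 0.0023), as did 1 edgeR model of all 46 libraries (0.038), where they called 331 and 21 genes in ST-HSCs. LT-HSCs were the exception: 14.4, 20.3 and 19.3 CPM in WT and 10.0, 19.4, 20.2 and 11.7 CPM in Tet2-/-, which overlapped, with a log2 fold change of -0.21 (SE 0.37, 95% interval -0.93 to 0.50). Whether the genotype effect on Cxcr4 differed among the 6 populations was tested as an interaction and missed the threshold (adjusted p = 0.0813), as it did for all 8 members, against 2.65% of all genes that passed. Leaving out 1 library gave 0 or 1 member in this test.

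**Figure D2:**
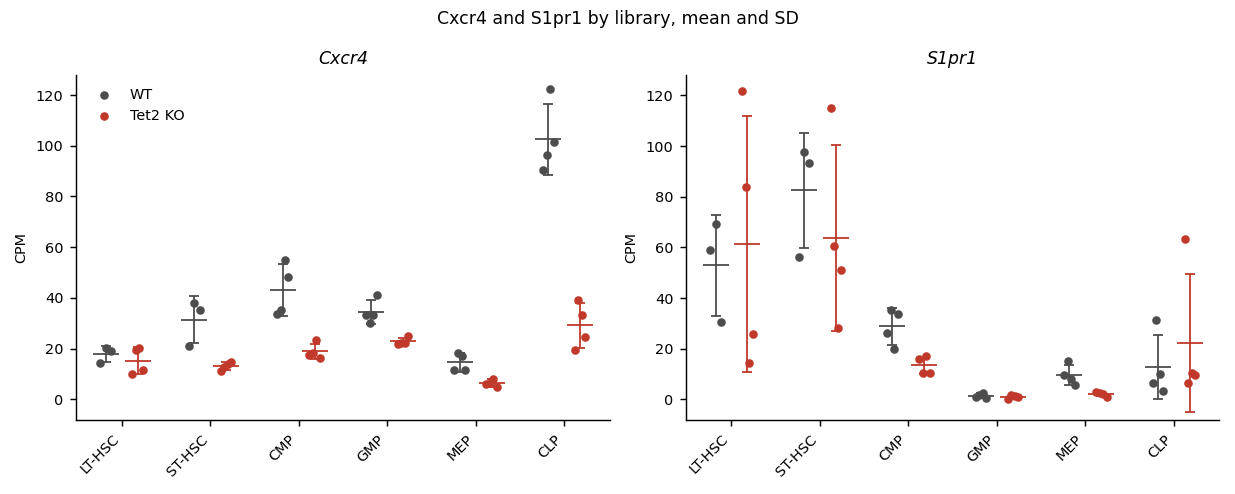
CPM of Cxcr4 and S1pr1 in each library of set 1, by population and genotype, with the mean and SD of each group. Tet2-/- libraries lie below all WT libraries for Cxcr4 in every population but LT-HSCs, and for S1pr1 in CMPs and MEPs.

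S1pr1 in MEPs was at 9.80, 15.04, 7.98 and 5.65 CPM in WT and at 2.75, 2.71, 2.12 and 1.08 CPM in Tet2-/-, a log2 fold change of -2.15 (SE 0.41, adjusted p = 0.0127; exact permutation p = 0.0286). The 2 groups were well apart, and the call held without each library in turn (adjusted p from 0.016 to 0.0436), but not in 1 model of all 46 libraries (0.149). The Tet2-/- MEP libraries held 86 to 269 counts of S1pr1 each. In CMPs, WT libraries had 26.2, 35.4, 19.8 and 33.8 CPM and Tet2-/- libraries 15.8, 10.4, 17.1 and 10.4 CPM. These did not overlap, with a log2 fold change of -1.12 (SE 0.25, adjusted p = 0.0285), a call lost with a replicate block (0.132), in 1 model of all 46 libraries (0.709) and without any of WT replicates 2, 3 and 5 or Tet2-/- replicates 3 and 5 (up to 0.085).

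In the stem cells S1pr1 showed a wide spread and was not called. ST-HSCs had 56.4, 97.9 and 93.4 CPM in WT and 115.1, 60.6, 28.3 and 51.1 CPM in Tet2-/-, and LT-HSCs had 58.8, 69.1 and 30.7 CPM in WT and 121.9, 83.9, 14.2 and 25.7 CPM in Tet2-/-. Both pairs of groups overlapped, with 95% intervals of the log2 fold change from -1.20 to 0.53 and from -1.10 to 1.59. The interval in ST-HSCs includes the change of -1.12 in CMPs, so a shift of that size is not excluded there. In LT-HSCs the sign turned without Tet2-/- replicate 2 (-0.35) or WT replicate 5 (-0.044). In both stem cell populations Tet2-/- replicate 2 was the highest of its group and replicate 4 the lowest.

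Markers of the neighbouring lineage moved with genotype in the CMP gate. The summed level of 7 erythroid progenitor genes, all 7 with a mean above 1 CPM, was 1021 to 2453 CPM in WT and 3888 to 7533 CPM in Tet2-/- CMPs, carried by the carbonic anhydrases Car1 and Car2, while Klf1, the erythroid transcription factor on that list, was lower in Tet2-/- (16.8 against 47.3 CPM). Also apart in CMPs were the sums of 8 myeloid progenitor genes, at 4203 to 5852 CPM in WT and 3896 to 4169 CPM in Tet2-/-, and of 6 CLP genes, at 181.5 to 289.3 and 115.7 to 144.6 CPM.

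In GMPs the erythroid list was at 125.9 to 162.6 CPM in WT and 191.2 to 218.5 CPM in Tet2-/-, 8 stem cell genes at 417.7 to 519.8 and 571.0 to 646.7 CPM, and the CLP genes at 116.8 to 183.3 and 91.9 to 106.0 CPM, while the myeloid list overlapped (31990 to 42820 and 36330 to 45180 CPM). In MEPs the erythroid list gave 17410 to 19450 and 18420 to 24130 CPM, which overlapped. The share of mitochondrial counts, a sign of RNA quality, moved with genotype too. It was 5.94% to 6.57% in WT and 7.85% to 8.37% in Tet2-/- CMPs, 3.64% to 4.60% and 4.74% to 5.09% in GMPs, and 8.73% to 9.02% and 10.0% to 13.1% in ST-HSCs, and overlapped in MEPs (6.85% to 9.18% and 8.96% to 9.74%). The part of these shifts in the results for Cxcr4 and S1pr1 was not tested.

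**Figure D3:**
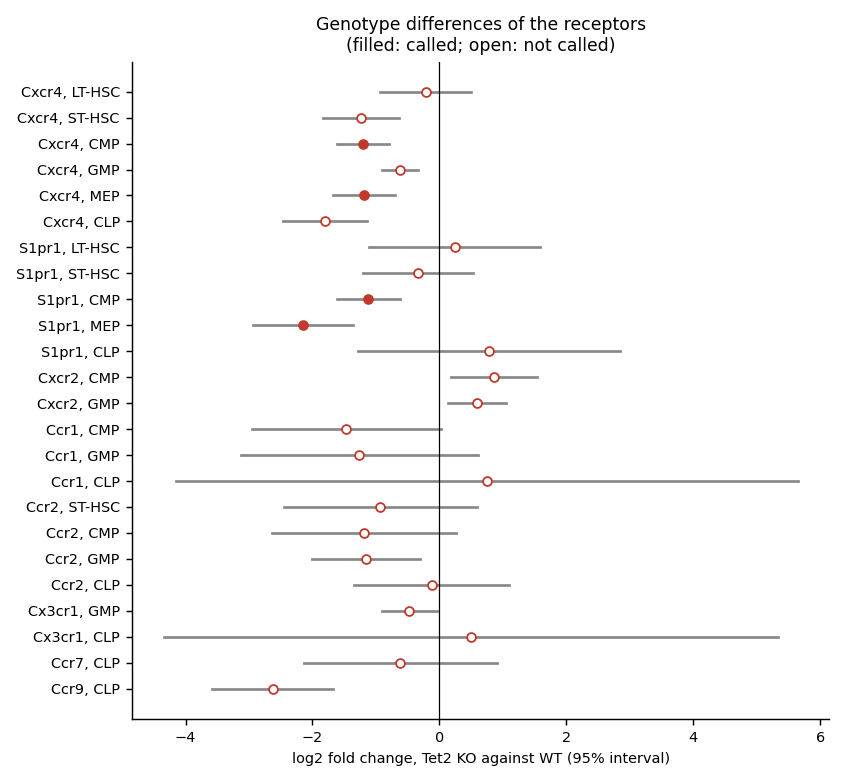
Log2 fold change (Tet2-/- minus WT) with an approximate 95% interval, for each member and population with a mean of 5 CPM or more in either genotype. The intervals use a normal quantile and are too narrow for so few libraries. Points are filled where the call was made. The Cxcr4 intervals lie below 0 in every population except LT-HSCs, and the filled points are Cxcr4 and S1pr1 in CMPs and MEPs. Without a call, intervals of Cxcr2 in CMPs and GMPs lie above 0, and those of Ccr2 and Cx3cr1 in GMPs and Ccr9 in CLPs below 0.

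Ccr1 and Ccr2 had lower means in Tet2-/- CMPs and GMPs, but with a split inside the Tet2-/- groups and no call. Ccr1 in GMPs was at 78.2, 88.6, 216.1 and 208.9 CPM in WT replicates 2 to 5 and at 129.6, 3.81, 114.0 and 4.51 CPM in Tet2-/- replicates 2 to 5. Ccr1 in CMPs was at 27.6, 29.5, 82.7 and 60.7 CPM in WT and at 45.2, 3.07, 20.4 and 5.35 CPM in Tet2-/-. In both populations Tet2-/- replicates 3 and 5 were far below all other libraries, while replicates 2 and 4 lay within or close to the WT range.

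Ccr2 followed the same numbers: it was at 186.7, 255.9, 417.7 and 419.1 CPM in WT GMPs and at 261.5, 63.2, 186.1 and 77.9 CPM in Tet2-/- GMPs. In CMPs Ccr2 was at 115.5, 178.5, 381.8 and 279.7 CPM in WT and at 251.4, 22.0, 127.5 and 24.7 CPM in Tet2-/-. Tet2-/- replicates 3 and 5 were also the lowest for Ccr2 in ST-HSCs, at 4.15 and 1.11 CPM against 13.7 and 11.1 CPM in replicates 2 and 4, and in MEPs, at 0.183 and 1.51 CPM against 7.71 and 2.16 CPM. They were not in CLPs, where replicate 2 was the lowest and replicate 3 the second highest, nor in LT-HSCs, where replicate 3 was the highest at 0.491 CPM. In WT CMPs and GMPs, too, replicates 4 and 5 were the higher pair for both genes. The log2 fold changes were -1.26 (SE 0.95, adjusted p = 0.582) for Ccr1 and -1.15 (SE 0.43, adjusted p = 0.181) for Ccr2 in GMPs, and -1.46 (SE 0.76, adjusted p = 0.351) and -1.19 (SE 0.74, adjusted p = 0.452) in CMPs (unadjusted p = 0.0226 for Ccr2 in GMPs), and none passed after adjustment. When single libraries were left out they ran from -1.89 to -0.87 for Ccr1 and from -1.59 to -0.94 for Ccr2 in GMPs, and from -2.40 to -1.11 and from -2.06 to -0.86 in CMPs, where the lowest values came without Tet2-/- replicate 2. None of these was called, with adjusted p from 0.0593 to 0.764.

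Of the other myeloid receptors, Cxcr2 and, in GMPs, Cx3cr1 did not follow the pattern by number of Ccr1 and Ccr2, while Cx3cr1 in CMPs did. Cxcr2 in GMPs was at 17.0, 11.5, 12.1 and 11.7 CPM in WT and at 17.7, 13.3, 23.9 and 26.3 CPM in Tet2-/- (log2 fold change 0.60, SE 0.23, adjusted p = 0.2). In CMPs it was at 6.91, 3.48, 3.94 and 4.21 CPM in WT and at 5.70, 10.6, 6.56 and 10.99 CPM in Tet2-/- (0.86, SE 0.34, adjusted p = 0.201). Its means were thus above WT in both, within overlapping groups. The unadjusted p of the edgeR test was 0.0268 in GMPs and 0.032 in CMPs. Tet2-/- replicate 5 was the highest in both populations. In CMPs Tet2-/- replicates 3 and 5 were the higher pair for Cxcr2, the reverse of Ccr1 and Ccr2. Cx3cr1 in GMPs was at 14.8, 18.7, 14.1 and 10.6 CPM in WT and at 10.0, 13.5, 10.3 and 9.01 CPM in Tet2-/- (-0.47, SE 0.22, adjusted p = 0.314). In CMPs Cx3cr1 was at 4.59, 1.80, 6.07 and 5.17 CPM in WT and at 4.715, 4.04, 7.51 and 3.10 CPM in Tet2-/-. There Tet2-/- replicates 3 and 5 were the lower pair and WT replicates 4 and 5 the higher pair, as for Ccr1 and Ccr2. The genotypes overlapped.

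**Figure D4:**
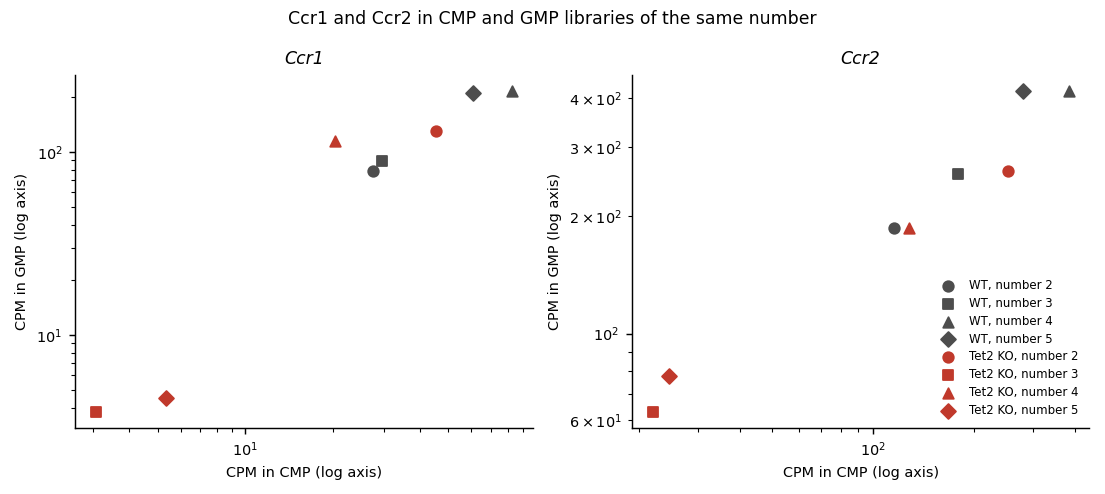
CPM of Ccr1 and of Ccr2 in CMPs (x axis) against GMPs (y axis) of the same replicate number, both on log axes, with 1 point per number and genotype. Tet2-/- numbers 3 and 5 lie lowest in both populations for both genes, and the other 2 Tet2-/- points lie near the WT points.

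In CLPs, Cxcr4 was at 90.3, 96.4, 122.2 and 101.3 CPM in WT replicates 2 to 5 and at 19.5, 39.3, 33.4 and 24.6 CPM in Tet2-/- replicates 2 to 5. Ccr9 was at 54.6, 181.4, 287.3 and 247.3 CPM in WT and at 35.8, 28.4, 30.4 and 30.9 CPM in Tet2-/-. For both genes every Tet2-/- library lay below every WT library, as for 1.96% of all genes tested there. The log2 fold changes, -1.80 (SE 0.34) and -2.63 (SE 0.49), exceeded those of every other member and population in which a group mean reached 5 CPM, apart from -2.15 for S1pr1 in MEPs, but the adjusted p was 0.376 for each (exact permutation p = 0.0286 for each). DESeq2 called both (adjusted p = 3.21e-06 for Cxcr4 and 6.1e-05 for Ccr9), and 1 edgeR model of all 46 libraries called Cxcr4 (1.55e-05), where it called 1477 genes in CLPs and DESeq2 461, against 1 in the fit within CLPs.

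The share of antibody chain genes moved with these results. It was 26.4%, 43.3%, 47.0% and 40.0% of counts in WT replicates 2 to 5 and 0.084%, 9.36%, 29.2% and 32.6% in Tet2-/- replicates 2 to 5. Its part in the result was not tested, since only 1 WT library, replicate 2, lay within the range of shares of the Tet2-/- libraries. With the antibody genes left out of the counts, an alternative added after the data were seen, the log2 fold changes were -1.82 and -2.65 (adjusted p = 0.312 for each). The summed level of 6 B cell markers, all 6 above a mean of 1 CPM in both genotypes, was 2773 to 4817 CPM in WT and 1131 to 2159 CPM in Tet2-/- CLPs. That of the 6 CLP genes, of which 5 in WT (not Rag1) and 6 in Tet2-/- had a mean above 1 CPM, was 145700 to 278600 CPM in WT and 2234 to 131600 CPM in Tet2-/- CLPs, most of it Ighm, an antibody chain, in every library but Tet2-/- replicate 2, where Ighm was at 583.3 CPM. Tet2-/- replicate 2 stood apart in its group: 8 T and NK cell genes summed to 1090 CPM against 317.2 to 446.9 CPM in the other 3, Il7r was at 1120 CPM against 231.0 to 340.6 CPM, and mitochondrial counts were 12.5% against 3.11% to 7.82%, with 2.41% to 4.58% in WT. Without that library the log2 fold changes were -1.65 for Cxcr4 and -2.69 for Ccr9 (adjusted p = 0.417 for each). The part of these marker and mitochondrial shifts in the result was not tested.

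**Figure D5:**
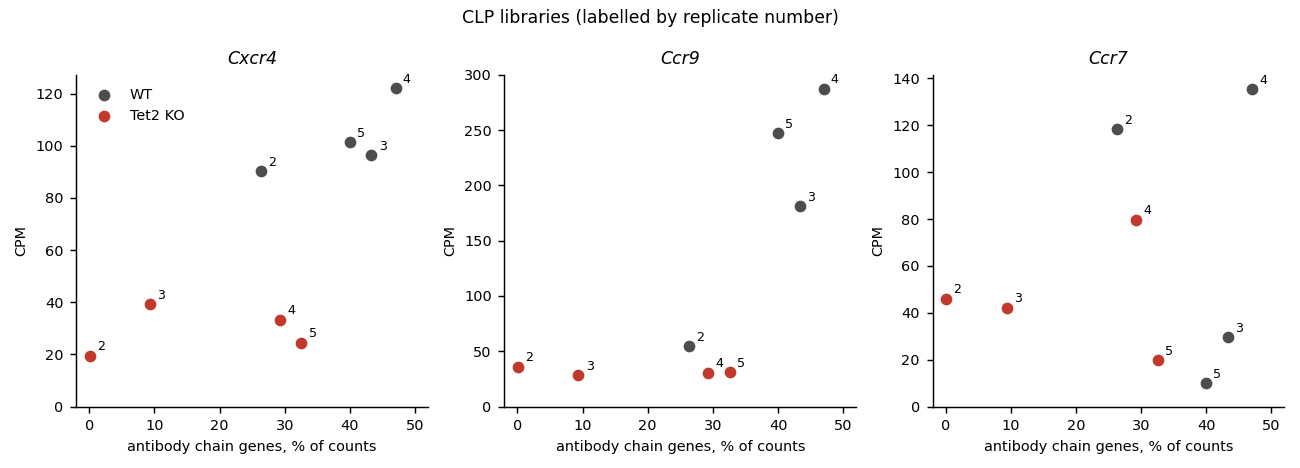
CPM of Cxcr4, Ccr9 and Ccr7 in the 8 CLP libraries (y axis) against the share of counts from antibody chain genes in percent (x axis), with 1 point per library. The 4 WT libraries lie above all Tet2-/- libraries for Cxcr4 and Ccr9 and overlap with them for Ccr7, and 3 of the 4 WT libraries have a higher antibody share than any Tet2-/- library.

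The other receptors varied widely between CLP libraries, with overlapping genotypes and no call, and their intervals do not exclude a shift. Ccr7 was at 118.3, 29.6, 135.4 and 10.0 CPM in WT and at 46.02, 42.2, 79.7 and 19.8 CPM in Tet2-/- (log2 fold change -0.62, SE 0.78). Ccr2 was at 360.3, 205.6, 100.1 and 129.5 CPM in WT and at 76.6, 125.6, 419.0 and 97.2 CPM in Tet2-/- (-0.12, SE 0.62). Both pairs of groups overlapped over most of their range. Cx3cr1 was at 54.95, 4.55, 0 and 0 CPM in WT and at 0, 9.32, 43.6 and 28.7 CPM in Tet2-/-, and Mpo, the granulocyte precursor marker, was at 1799, 766, 2.77 and 28.3 CPM in the same WT and at 1.71, 7157, 1596 and 2289 CPM in the same Tet2-/- libraries. Ccr1 was at 14.1, 1.25, 0 and 0 CPM in WT and at 0, 10.3, 10.75 and 3.598 CPM in Tet2-/-. The 5 CLP libraries with Mpo at 766 CPM or more had Cx3cr1 and Ccr1, and the other 3 had neither. The 95% intervals of the log2 fold change ran from -4.34 to 5.34 for Cx3cr1 and from -4.16 to 5.64 for Ccr1. S1pr1 was at 6.58, 31.5, 9.84 and 3.31 CPM in WT and at 63.3, 6.66, 10.3 and 9.59 CPM in Tet2-/-, the highest value falling in the Tet2-/- library with the fewest antibody counts.

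Set 2 gave LT-HSC levels in libraries labelled WT, Sting-/- and DKO. The mRNA of Sting itself (Tmem173) ran from 0 to 46.1 CPM in the libraries labelled WT, from 0 to 120.9 CPM in those labelled Sting-/- and from 0 to 26.1 CPM in those labelled DKO, with means of 26.9, 61.1 and 8.75 CPM. The mean in the libraries labelled Sting-/- was thus above that of WT, against the label, within overlapping groups. Counts over the whole gene do not show a deletion of a part of it. S1pr1 was at 361.7, 165.5 and 109.6 CPM in WT, at 391.3, 117.6 and 166.1 CPM in the libraries labelled Sting-/- and at 169.3, 196.9 and 224.2 CPM in DKO libraries, which overlapped throughout. Its log2 fold change was 0.08 (SE 0.54) for Sting-/- against WT, -0.11 (SE 0.54) for DKO against WT and -0.19 (SE 0.54) for DKO against Sting-/-, with 95% intervals from -0.97 to 1.14, from -1.17 to 0.95 and from -1.25 to 0.86. These comparisons share libraries. Cxcr4 was at 1.42, 3.88 and 19.7 CPM in WT, at 1.36, 1.45 and 2.91 CPM in Sting-/- and at 0.921, 0.0561 and 19.4 CPM in DKO.

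A single library per group held most of the Cxcr4 counts of WT and DKO in set 2, 564 counts in WT replicate 3 and 840 in DKO replicate 3. Its intervals were accordingly wide, from -7.07 to 2.86 for Sting-/- against WT and from -5.06 to 4.48 for DKO against WT. Neither member was called in any of the 3 comparisons, in which 0.00915%, 1.13% and 0.686% of 10925 genes were. The other 6 members had at most 2 counts in every library of set 2 and were not tested. With 3 against 3 libraries an exact permutation test cannot go below p = 0.1.

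Beyond the receptors, 98 of 100 listed genes of the same pathway (other receptors, ligands, lipid enzymes, G proteins and their shut-off, motility effectors and transcription factors) could be used, the other 2 having repeated rows. Every call on the list by edgeR was lower in Tet2-/-. Called lower were 7 of 77 tested in CMPs, 6 of 75 in GMPs and 4 of 68 in MEPs, and 0 of 74, 79 and 77 in LT-HSCs, ST-HSCs and CLPs. Of all genes, 4.57%, 4.37% and 4.36% were called in CMPs, GMPs and MEPs, and most of those, too, were lower. At an unadjusted p below 0.05 and 2-fold, 1 listed gene was higher in LT-HSCs, 3 higher and 4 lower in ST-HSCs and 3 higher and 2 lower in CLPs. DESeq2 called none in LT-HSCs, 2 higher and 2 lower in ST-HSCs, 2 higher and 9 lower in CMPs, and 2 higher and 2 lower in CLPs. Over the listed genes the median log2 fold change was -0.22 in CMPs, where that of all genes was 0.03, and 0.01 in GMPs and -0.07 in MEPs, where all genes had 0.03 and 0.05.

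Of the other receptors, Ptger4, a prostaglandin E2 receptor, fell from 18.4 ± 6.34 to 5.87 ± 1.94 CPM in CMPs (log2 fold change -1.66, adjusted p = 0.0229) and from 18.0 ± 5.31 to 4.08 ± 1.69 CPM in GMPs (-2.16, 0.00235). Ltb4r1, the leukotriene B4 receptor, fell from 8.26 ± 2.26 to 1.03 ± 0.622 CPM in CMPs (-2.99, 0.00423). None of the 17 other chemokine receptors was called by edgeR, and 3 to 9 of them passed the low-count filter in a population. Ccr8 was at 183.6 ± 24.7 CPM in WT and 15.15 ± 9.43 CPM in Tet2-/- CLPs, where the log2 fold change of -3.59 (SE 0.51) had an adjusted p of 0.301, and was near 0 elsewhere. Ccrl2, an atypical one that binds chemerin, had lower means in all 6 populations (53.3 against 27.9 CPM in CMPs, adjusted p = 0.154) without a call. Cxcr6 was the chemokine receptor of the list with the highest level per kilobase and lay in the CLP libraries, at 332.3 to 357.1 CPM in WT and 161.6 to 409.5 CPM in Tet2-/-.

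Among ligands, the inflammatory chemokines Ccl3 and Ccl4 fell in CMPs, Ccl3 from 456.5 ± 144.3 to 148.2 ± 32.7 CPM (log2 fold change -1.64, adjusted p = 0.00333) and Ccl4 from 573.6 ± 193.4 to 198.9 ± 34.3 CPM (-1.54, 0.00491). Ccl3 also fell in GMPs (-1.19, adjusted p = 0.000371). The CXCR2 ligand Cxcl2 fell in GMPs (-1.69, 0.0233) and MEPs (-2.24, 0.00601). Cxcl12, the ligand of CXCR4, was at or below 3.43 CPM on average in every group.

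Cd69, whose protein binds S1PR1 and takes it off the cell surface, fell together with S1pr1 in CMPs (1315 ± 277.8 to 425.9 ± 206.8 CPM; log2 fold change -1.65, adjusted p = 0.0161) and in MEPs (477.4 ± 163.5 to 115.9 ± 58.9 CPM; -2.06, 0.0278). The lipid phosphatase gene Plpp1 fell in MEPs (-1.50, 0.0344). Of the transcription factors, Klf2, known to activate S1pr1 in lymphocytes, fell in CMPs (22.5 ± 14.3 to 5.22 ± 1.46 CPM; -2.12, 0.0301) and in GMPs (26.1 ± 11.9 to 5.02 ± 2.74 CPM; -2.41, 0.0103). S1pr1 was not called in GMPs (adjusted p = 0.782). In MEPs, where S1pr1 was called lower, Klf2 was at 0.845 to 1.28 CPM in WT and 0.0906 to 1.68 CPM in Tet2-/-, which overlapped. Spi1, which encodes PU.1, fell in CMPs (102.8 ± 12.5 to 12.3 ± 2.89 CPM; -3.08, 2.89e-05), GMPs (207.2 ± 29.7 to 34.8 ± 1.80 CPM; -2.61, 1.19e-06) and MEPs (7.78 ± 0.469 to 0.687 ± 0.363 CPM; -3.45, 0.003). Hif1a, the hypoxia factor, fell in GMPs (-1.76, 0.000445). The G proteins, their exchange factors and the 15 motility effectors had no call in any population, with Gnai2, the Gi subunit, at 44.1 to 97.1 CPM on average in every group.

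As a description over 46 libraries that share populations and depth, the genes most like each member by Pearson correlation of log2 CPM, among 10364 genes with a group mean of 10 CPM or more, were these. Cxcr4 was most like Rilpl2 (r = 0.87), Nfkbid (0.853) and Sqstm1 (0.83), a lower likeness than any other member's top gene except Ccr1's. Ccr9 was most like the B cell genes Ikzf3 (0.977), Cd79a (0.966) and Ly6d (0.966), and Ccr7 was most like Batf3 (0.943), Cd2 (0.939) and Il2rb (0.937), genes high in the CLP libraries. Ccr2 was most like Cotl1 (0.909) and Atp8b4 (0.9), Ccr1 like Ly86 (0.864), Ctsg (0.855) and Anxa3 (0.843), and Cx3cr1 like Rasa4 (0.875) and F13a1 (0.872). Cxcr2 was most like Mrgpra2a (0.965), Mrgpra2b (0.958) and Cd300lb (0.861), of which the first 2 are near-identical copies whose reads may be split between them. S1pr1 was most like Rgs1 (0.917) and Ctla2a (0.899), Rgs1 being a brake on Gi signalling. Between members, the highest correlations were 0.904 for Ccr7 and Ccr9 and 0.783 for Ccr1 and Ccr2, and S1pr1 and Cx3cr1 ran most against each other at -0.559.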

How the data were processed

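RNA of sorted bone marrow cells was amplified and sequenced by a SMART-Seq2 protocol that does not mark strand, so that reads of overlapping genes on opposite strands cannot be told apart. The authors trimmed the reads and aligned them to mm10 with HISAT2 (the submitters' processing notes list Trim Galore 0.6.7 and HISAT2 7.5.0, and the study's methods other versions of both), and the deposited tables hold raw counts per gene, not normalized. The counting tool and annotation are not given in the sources used here. The second deposited table also holds a column of gene lengths, which served only as an alternative for levels per kilobase, and 2 broken lines of it were left out. Per-kilobase levels used exon lengths of GENCODE vM21, in which 55154 of 55421 gene IDs were found.

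Tests on counts used edgeR 4.0.16 under R 4.3.3 (TMM scaling, filterByExpr, trended dispersion, quasi-likelihood F test, prior count 2), within each population for genotype, in 1 model of 12 groups and 46 libraries (22360 genes) for populations and the interaction, and in 1 model of 9 libraries (10925 genes) for set 2. The study's own tool, DESeq2 (1.42.0 here), was an alternative. A call is a Benjamini-Hochberg adjusted p below 0.05 over all genes tested with at least 2-fold change. Exact permutation tests used log2(CPM + 0.5). A library with 3 counts of a gene or fewer was taken to be at the floor, and genotype fold changes were plotted where either mean reached 5 CPM. The tests were tried on simulated counts with 4-fold changes. Of the changed genes they recovered most in CMPs, a minority in the model of populations, and few in CLPs and set 2. Smaller changes, such as the 2.30-fold of Cxcr4 and 2.17-fold of S1pr1 in CMPs, were not simulated.

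The alternatives were another scaling (RLE), no low-count filter, a replicate block, 1 model of all 46 libraries, DESeq2 and leaving out each library. For populations, the last reused the tested genes and the dispersion trend of the whole fit. Added after the data were seen were a CLP fit without antibody genes, models without the CLP libraries, and the other gene lengths. Replicate numbers 2 to 5 recur across groups, but libraries with the same number in WT and Tet2-/- did not deviate together, so the main genotype tests have no block. Same-numbered libraries of 2 populations did so in part, with 21 of 60 Tet2-/- pairs over 0.1. The main model of populations has no block either and treats these libraries as independent, which is a limit of its tests.

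Named genes are the 8 members, listed pathway genes that were called or had the 4 highest levels per kilobase in their role, Cxcl12 (added after its values were seen, as the ligand of CXCR4), and the 3 genes most like each member, of which 1 each for Ccr2, Cx3cr1 and S1pr1 is not reported here. Markers of cell types, targeted genes and Y-linked genes are named where they check a label or stand beside a result. The members and all gene lists were chosen with earlier results of these data known.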

Additional observations from a re-analysis of the deposited data

Results flagged for a closer look

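Of 52 groups of 4 libraries in which a member reached a mean of 1 CPM, 7 had a highest or lowest library whose gap to the next, divided by the range of the group, was above Dixon's 95% critical value for 4 samples. Chance gives about 1 such group in 20 where samples are independent and normally spread, which does not describe groups that share libraries or hold libraries at 0, so the 7 were not read against that rate. Of these 7, 4 were CLP groups. Ccr1 in WT CLP replicate 2 (14.1 CPM, ratio 0.9115) and Cx3cr1 in the same library (54.95 CPM, ratio 0.9172) stood above the other 3 WT CLP libraries, and this library had the highest Mpo of its group, 1799 CPM. S1pr1 in Tet2-/- CLP replicate 2 (63.3 CPM, ratio 0.9366) and Ccr2 in Tet2-/- CLP replicate 4 (419.0 CPM, ratio 0.8568) stood above their groups. Outside the CLPs, the high libraries were Cx3cr1 in Tet2-/- ST-HSC replicate 4 (4.77 CPM against 0 in the others, ratio 1.0), Cxcr2 in WT GMP replicate 2 (17.0 CPM, ratio 0.882) and Cxcr4 in Tet2-/- GMP replicate 5 (25.1 CPM, ratio 0.8689), the last still below every WT GMP library. What sets these libraries apart was not tested.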

How the results depend on the processing

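The lower Cxcr4 in Tet2-/- CMPs was called in every alternative run. The number of members called in CMPs, 2, was 1 with a replicate block (S1pr1 had an adjusted p of 0.132), 1 in 1 model of all 46 libraries, and 1 to 2 when single libraries were left out. In MEPs, 2 members became 1 in 1 model of all 46 libraries, and 1 to 2 without single libraries. In ST-HSCs, 0 members became 1 in 1 model of all 46 libraries and 1 by DESeq2, and in CLPs 0 became 1 and 2. Between populations, ST-HSCs against LT-HSCs gave 1 member in WT and in Tet2-/-, 0 to 1 in both when single libraries were left out, and 4 in Tet2-/- by DESeq2. CMPs against ST-HSCs gave 1 member in WT, 3 by DESeq2, 2 without the CLP libraries and 0 to 2 without single libraries, and 1 in Tet2-/-, 2 with RLE scaling, 4 by DESeq2, 4 without the CLP libraries and 0 to 4 without single libraries. MEPs against CMPs in Tet2-/- gave 5 members and 2 to 5 without single libraries, and the interaction 0 and 0 to 1. The cause of these changes was not tested.

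Signs turned only where no call was made. When single libraries were left out, the log2 fold change of Tet2-/- against WT ran from -0.35 to 0.57 for S1pr1 in LT-HSCs, and in CLPs from -0.98 to 0.27 for Ccr2, from -0.21 to 3.68 for Cx3cr1 and from -0.54 to 1.75 for S1pr1. In set 2 it ran from -0.58 to 0.71 for S1pr1 in Sting-/- against WT, from -3.98 to 1.35 for Cxcr4 and from -0.43 to 0.51 for S1pr1 in DKO against WT, and from -1.87 to 2.38 for Cxcr4 and from -0.53 to 0.47 for S1pr1 in DKO against Sting-/-. With a replicate block in set 2, S1pr1 was at 0.13 in DKO against WT and at 0.063 in DKO against Sting-/-, and Cxcr4 at -0.063 in DKO against Sting-/-.

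Same-numbered WT and Tet2-/- libraries had correlations of their deviations from -0.059 to 0.133 over 22 pairs (8867 genes, 2 pairs over 0.1), and same-numbered libraries of 2 populations a median of 0.0635 in Tet2-/- (-0.073 to 0.328, 21 of 60 pairs over 0.1) and 0.052 in WT (-0.063 to 0.171, 11 of 51 pairs). In Tet2-/- they were 0.287 and 0.328 for LT-HSCs and ST-HSCs of numbers 2 and 4, but -0.041 for number 5. For CMPs and GMPs they ran from 0.096 to 0.254. Not every pair was over 0.1, so the numbers were not taken as pairs, but this does not settle whether same-numbered libraries share a mouse. The population and interaction tests treat all libraries as independent, and their p values may be off if mice are shared. The block took the genes called in LT-HSCs from 4 to 2, in CLPs from 1 to 0, and in the set 2 comparisons from 1, 123 and 75 to 0, 70 and 48.

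By DESeq2 the counts of all genes called went from 4 to 237 in LT-HSCs, 3 to 331 in ST-HSCs, 734 to 1234 in CMPs, 651 to 1049 in MEPs and 1 to 461 in CLPs, and in 1 model of all 46 libraries to 20, 21, 285, 423 and 1477, with 723 to 219 in GMPs. For the steps ST-HSC to LT-HSC, CMP to ST-HSC, GMP to CMP and MEP to CMP, 21, 679, 440 and 1091 in WT became 1261, 2506, 1577 and 2748 by DESeq2 and 143, 1871, 1403 and 2220 without the CLP libraries, and 41, 827, 806 and 800 in Tet2-/- became 1209, 2333, 2096 and 2389, and 204, 2190, 2022 and 1755. When single libraries were left out, the first step ran from 5 to 34 genes in WT (5, 10 and 13 without LT-HSC replicates 2, 3 and 5, 33 without Tet2-/- CLP replicate 2, 34 without WT CLP replicate 4) and from 18 to 55 in Tet2-/- (21, 18 and 23 without LT-HSC replicates 2, 4 and 5). The second fell to 394 and 410 without WT ST-HSC replicates 2 and 5, and to 537 and 499 without Tet2-/- CMP and ST-HSC replicate 3. GMP to CMP fell to 277, 263 and 226 without WT CMP replicate 2 and GMP replicates 3 and 5, and to 498 and 434 without Tet2-/- GMP replicate 3 and CMP replicate 5. In CLPs the 1 gene was lost without WT replicate 2, 3 or 5. The set 2 counts ran from 0 to 2, from 52 to 115 and from 38 to 56, lowest for the last pair of comparisons without WT replicate 3 and DKO replicate 2. In set 2, DESeq2 called 445, 1355 and 1153 genes, and 4 were called in Sting-/- against WT without the low-count filter. With the gene lengths of the second table, the levels of Ccr2 and Ccr9 per kilobase in WT GMPs and CLPs moved by more than their SD, and those of the other members did not. The members called between genotypes in CMPs and MEPs, Cxcr4 and S1pr1, had 86 counts or more in every library of those populations. Counts of this size can vary widely in libraries amplified from so few cells. Ccr1 in WT LT-HSCs had 335 counts in replicate 3 and 0 in replicates 2 and 5. Cx3cr1 had 306 counts in Tet2-/- ST-HSC replicate 4 and 0 in the others. The part of such unevenness in the result for S1pr1 in MEPs was not tested.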
